A study of Mus musculus with 60 samples.

Results

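The genes that supply TGFb to these cells are the ligands Tgfb1, Tgfb2 and Tgfb3, the latent TGFb binding proteins Ltbp1, Ltbp2, Ltbp3 and Ltbp4, and Lrrc32, which encodes GARP. They were chosen by name, as 8 of the 56980 genes in each of the deposited count tables, and all 8 were counted above the expression filter in both tables. TGFb is made as a precursor from which furin-type proteases cut a propeptide, and this propeptide stays wrapped around the growth factor and keeps it silent. In the secretory pathway it is joined to an LTBP, which fastens the latent complex to fibrillin and fibronectin in the matrix, or to GARP, which holds it on the cell surface. Integrins and proteases then free the ligand, which signals through the type II receptor and ALK5 (Tgfbr1). In fibroblasts this pathway is known for driving matrix production and the myofibroblast state, and its shutdown belongs to the early, mesenchymal to epithelial step of reprogramming. LTBP1, LTBP3 and LTBP4 carry latent TGFb, whereas LTBP2 does not bind it and acts in microfibrils. GARP is best known on regulatory T cells and platelets.

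RNA was sequenced from mouse fibroblasts (FBs) in 60 libraries, 3 in each of 20 groups. In the reprogramming table (36 libraries) the D/KO cells were 4FJ_ERCC1_(d/-) tail tip FBs from a male of 8 weeks, which carry a null and a truncated allele of the DNA repair gene Ercc1, and the WT cells were 4FJ_(+/-)_OCT4-GFP tail tip FBs from a female of 22 weeks. Both lines carry a polycistron of Oct4, Sox2, Klf4 and c-Myc in the Col1a1 locus, and the D/KO line carries the doxycycline-dependent activator rtTA in ROSA26, whereas the site of the activator in the WT line is not given in the sources used here. Libraries were made before doxycycline (2 µg/ml; day 0) and on days 2 and 4, in medium with or lacking VC, which is ascorbic acid (50 µg/ml) plus the GSK3 inhibitor CHIR (3 µM). In the inhibitor table (24 libraries) the D/KO cells were ERCC1_(d/-) tail tip FBs without the reprogramming factors, from a female of 4 weeks, left as control or kept for 3 days in Repsox (0.1 µM), Vactosertib (0.1 µM), DMH-1 (1 µM) or A83-01 (1 µM). Repsox and A83-01 inhibit ALK5, DMH-1 inhibits the BMP receptor ALK2, and Vactosertib, counted here with the ALK5 inhibitors, is described by the study as acting on both receptors. That table also held ERCC1_(+/+)_WT cells from a female of 14 weeks, from tail tip and from skin, and 4FJ_(+/-)_OCT4-GFP tail tip cells whose treatment is given only as TGFB, with no dose or time. Genotype, age and line, and in the reprogramming table also sex, change together between D/KO and WT cells and cannot be told apart. The Ercc1 mutant mice were hybrids of C57BL6J and FVB, and all cells were grown at low oxygen. The labels do not say that the 3 libraries of a group came from separate cultures or animals, so p-values measure the spread between these libraries, which may be technical.

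Upstream sequences of Tgfb1, Ltbp1 and Lrrc32 (250 bases before the canonical start, GRCm39 with GENCODE M39) are shown because they stand for a ligand, a carrier and an anchor whose transcripts fell in D/KO cells during reprogramming, and because no annotated exon lies in them. Capitals mark CAGAC or its reverse complement GTCTG, the short SMAD-binding letters, and GGGNGTGG or CCACNCCC, the KLF-type letters.
Tgfb1, chr7:25386140-25386389, plus strand: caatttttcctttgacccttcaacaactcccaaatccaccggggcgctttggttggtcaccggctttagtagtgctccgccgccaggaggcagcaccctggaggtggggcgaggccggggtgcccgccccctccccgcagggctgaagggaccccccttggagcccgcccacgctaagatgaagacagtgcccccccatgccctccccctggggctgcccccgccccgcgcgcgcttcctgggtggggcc
Ltbp1, chr17:75485555-75485804, plus strand: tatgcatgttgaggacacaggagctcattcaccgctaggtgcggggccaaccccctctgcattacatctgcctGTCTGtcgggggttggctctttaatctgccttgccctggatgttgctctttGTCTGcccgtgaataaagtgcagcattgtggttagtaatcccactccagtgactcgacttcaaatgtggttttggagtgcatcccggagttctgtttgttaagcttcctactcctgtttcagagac
Lrrc32, chr7:98138654-98138903, plus strand: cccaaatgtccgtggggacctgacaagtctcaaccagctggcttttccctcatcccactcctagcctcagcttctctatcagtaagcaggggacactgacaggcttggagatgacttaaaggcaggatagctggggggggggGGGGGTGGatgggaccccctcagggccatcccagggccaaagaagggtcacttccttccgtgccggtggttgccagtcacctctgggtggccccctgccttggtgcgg

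The Tgfb1 window held none of these letters, the Ltbp1 window held the SMAD letters at 2 places, and the Lrrc32 window held the KLF-type letters at 1 place. Over the 8 genes, 4 windows (Tgfb2, Ltbp1, Ltbp2 and Ltbp3) held the SMAD letters, against 41.3% of all 21770 windows of that length. The KLF-type letters stood in 3 windows (Tgfb2, Ltbp3 and Lrrc32), against 16.8% of all, and the AP-1 letters TGANTCA in 0, against 6.17%. The canonical Ltbp1 start lies inside the gene, which has an earlier start for its long form, and the counts do not separate the forms. The Tgfb3, Lrrc32, Ltbp3 and Ltbp4 windows also lie within the GENCODE spans of their genes. A match describes the letters and shows no binding.

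In the deposited tables (GRCm39) Tgfb1 spans chr7:25386427-25404502, Tgfb2 chr1:186354989-186438186, Tgfb3 chr12:86103519-86125815 and Lrrc32 chr7:98138490-98151388. The binding protein genes span chr17:75312563-75699507 (Ltbp1), chr12:84829986-84923306 (Ltbp2), chr19:5790932-5808560 (Ltbp3) and chr7:27004561-27037117 (Ltbp4). By the exon coordinates deposited with the counts, exons of Tgfb2 share 124 bases with the opposite-strand gene Gm29491. Those of Tgfb3 share 163 with Gm37804 and 257 with Gm48008, and those of Ltbp2 share 764 with D030025P21Rik. Whether counting used strand is not given in the sources used here, so reads of these partners cannot be told apart there. Exons of Tgfb1, Ltbp1, Ltbp4 and Lrrc32 share no base with another gene.

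A reprogramming library held 16538374 to 18484951 counts and an inhibitor-table library 17102639 to 30599138, and the lowest count of any of the 8 genes in any library was 90 (Tgfb2). Ercc1 lay at 8.04 to 18.6 CPM (counts scaled by library total and TMM factor) in the D/KO libraries of the reprogramming table against 16.9 to 29.1 in the WT ones, and at 13.2 to 23.5 in the D/KO libraries of the inhibitor table against 13.3 to 21.7 in WT tail tip. A transcript level does not check a truncated allele. WT skin replicate 1 and Repsox replicate 2 stood apart from their group mates, with pairwise variances 301 to 397 and 163 to 176 times counting noise, where the mates differed from each other by 6.27 and 5.48 times. Tests on the 8 genes, list counts and extremes of the group order that rest on them are therefore also given without them. The next highest pair, WT tail tip replicates 2 and 3, differed by 96.6 times counting noise. Both were kept, except in fits that left out 1 library. Summed fibroblast markers (10 genes) were between 36829 and 262778 CPM in all libraries, and the immune and platelet markers (7 genes, with Ptprc, Foxp3 and Itga2b among them) summed to at most 31.5 CPM. In bulk RNA, fewer cells of a type and less RNA per cell cannot be told apart.

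Before reprogramming, all 8 genes were transcribed in both lines, and Ltbp2 and Lrrc32 were the most abundant per length. In D/KO day 0 cells the level was 232 ± 5.68 RPKM (CPM per kilobase of transcript, mean ± SD, n = 3) for Ltbp2, 125 ± 36.4 for Lrrc32 and 49.4 ± 1.44 for Ltbp3. Tgfb3, at 36.2 ± 5.16 RPKM, and Tgfb1, at 28.9 ± 2.93, were the main ligands there, and Tgfb2 stood at 2.43 ± 0.39. In WT day 0 cells Ltbp2 reached 380.4 ± 18.8 RPKM and Lrrc32 125 ± 3.11, Tgfb3 stood at 37.3 ± 0.916, Tgfb1 at 6.504 ± 0.651 and Tgfb2 at 1.01 ± 0.106.

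Shares of the ligand transcripts differed between the lines at the start by more than their SDs. Of the summed RPKM of the 3 ligands, Tgfb1 made up 42.9% ± 2.503 (SD, n = 3) in D/KO day 0 cells and 14.5% ± 1.12 in WT day 0 cells, and Tgfb3 made up 53.5% ± 2.49 and 83.3% ± 1.18. Among the binding proteins Ltbp2 made up most of the sum in both lines, 73.2% ± 1.82 and 75.7% ± 0.884. These shares are of transcripts per length and say nothing of protein.

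Set side by side, D/KO and WT cells at day 0 differed in 4 of the 8 genes, with Tgfb1 and Tgfb2 higher and Ltbp1 and Ltbp2 lower in D/KO, where 43.2% of all genes tested passed the threshold (edgeR's quasi-likelihood F-test, Benjamini-Hochberg adjusted p under 0.05). Tgfb1 read 140.2, 134 and 162 CPM in the D/KO libraries and 36.5, 31.6 and 30.3 in the WT ones (log2 fold change 2.15 ± 0.13, ± giving the standard error for all fold changes, adjusted p = 2.94e-16). Ltbp1 went the other way, at 141, 132 and 128 against 437, 488 and 514 CPM (log2 fold change -1.84 ± 0.11, adjusted p = 2.59e-16). In neither gene did the libraries of the lines overlap, as for 52.4% of all genes. Tgfb2 differed by 1.27 ± 0.16 and Ltbp2 by -0.71 ± 0.14 on the log2 scale (adjusted p = 6.75e-08 and 7.18e-05), while the intervals for Tgfb3, Ltbp3, Ltbp4 and Lrrc32 included 0. Endothelial markers differed with the lines: Pecam1, Cdh5, Kdr, Vwf and Tek summed to 513 to 599.7 CPM in D/KO and 14.7 to 17.6 CPM in WT day 0 libraries, with 4 of 5 higher in D/KO. Immune and platelet markers summed to 4.16 to 6.58 CPM in D/KO and 18.8 to 31.5 in WT day 0 libraries, with 0 of 5 tested higher and 5 lower in D/KO (median log2 fold change -2.48), and fibroblast markers had 5 of 10 higher and 3 lower (0.22). Their part in these differences was not tested.

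The order of the group means, given with the SD over 3 libraries, showed where each gene stood highest and lowest. Tgfb1 was highest in D/KO day 0 (146 ± 14.8 CPM) and lowest in WT day 4 plus VC (17.2 ± 1.34) of the 12 reprogramming groups, with 6 of 11 neighbours in the order overlapping, and in the other table it ran from TGFB-labelled cells (318 ± 31.4 CPM) down to A83-01 (34.7 ± 1.503), with 1 of 7 overlapping. Tgfb2 was highest in D/KO day 4 plus VC (57.7 ± 8.98 CPM) and lowest in WT day 0 (5.83 ± 0.611) of the 12 reprogramming groups, with 6 of 11 neighbours in the order overlapping, and in the other table it ran from TGFB-labelled cells (57.3 ± 1.52 CPM) down to control D/KO (10.7 ± 1.11), with 3 of 7 overlapping. Tgfb3 was highest in WT day 0 plus VC (287 ± 11.1 CPM) and lowest in D/KO day 4 plus VC (27.7 ± 1.07) of the 12 reprogramming groups, with 5 of 11 neighbours in the order overlapping, and in the other table it ran from TGFB-labelled cells (407 ± 8.64 CPM) down to WT tail tip (50.7 ± 4.18), with 4 of 7 overlapping. The ligands thus peaked in different reprogramming groups. Ltbp1 was highest in WT day 0 plus VC (529.8 ± 27.98 CPM) and lowest in D/KO day 4 plus VC (54.5 ± 4.43) of the 12 reprogramming groups, with 4 of 11 neighbours in the order overlapping, and in the other table it ran from A83-01 (461 ± 19.6 CPM) down to WT skin (91.4 ± 18.3), with 3 of 7 overlapping. Ltbp2 was highest in WT day 0 plus VC (3157 ± 39.96 CPM) and lowest in D/KO day 4 plus VC (363 ± 39.9) of the 12 reprogramming groups, with 6 of 11 neighbours in the order overlapping, and in the other table it ran from TGFB-labelled cells (6734 ± 76.2 CPM) down to DMH-1 (679 ± 34.99), with 5 of 7 overlapping. Ltbp3 was highest in WT day 4 (546 ± 18.1 CPM) and lowest in D/KO day 4 plus VC (165 ± 13.3) of the 12 reprogramming groups, with 7 of 11 neighbours in the order overlapping, and in the other table it ran from WT tail tip (605 ± 7.52 CPM) down to WT skin (323 ± 101), with 5 of 7 overlapping. Neighbours that overlap do not differ beyond the spread of their libraries. Ltbp4 was highest in WT day 4 (469.8 ± 11.2 CPM) and lowest in WT day 0 plus VC (76.5 ± 12.6) of the 12 reprogramming groups, with 7 of 11 neighbours in the order overlapping, and in the other table it ran from WT tail tip (265 ± 8.59 CPM) down to TGFB-labelled cells (59.2 ± 3.46), with 4 of 7 overlapping. Without skin replicate 1, WT skin was still lowest for Ltbp1 (102 CPM, n = 2) and Ltbp3 (382 CPM, n = 2). Without it and Repsox replicate 2, overlapping neighbours of the inhibitor table numbered 1 of 7 for Tgfb1, 2 for Tgfb2 and Ltbp1, 3 for Tgfb3 and Ltbp4, 4 for Ltbp2 and Lrrc32 and 5 for Ltbp3. Lrrc32 was highest in WT day 0 plus VC (646 ± 33.5 CPM) and lowest in D/KO day 4 plus VC (124 ± 5.64) of the 12 reprogramming groups, with 6 of 11 neighbours in the order overlapping, and in the other table it ran from TGFB-labelled cells (1052 ± 35.3 CPM) down to WT tail tip (111 ± 25.03), with 5 of 7 overlapping.

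By day 4 of reprogramming, 4 to 7 of the 8 genes were lower than at day 0, depending on the arm. Tgfb3, Ltbp1, Ltbp2 and Lrrc32 were lower in each of the 4 arms (either line, VC present or absent, each against its own day 0 libraries), and Ltbp4 was higher in each. Of all 15832 genes tested, 5.44% were lower and 4.91% higher in all 4. Tgfb1 fell in 3 arms, Ltbp3 passed the test as lower in both arms with VC and in neither arm without it, and Tgfb2 rose in D/KO cells but not in WT cells. In D/KO cells 5 genes were lower and 2 higher at day 4 (37.0% of all genes passed), and with VC 6 were lower and 2 higher (54.1%). In WT cells 4 were lower and 1 higher (24.5%), and with VC 7 were lower and 1 higher (44.7%). At day 2 the counts were 5 lower and 1 higher in D/KO (27.4%), 6 and 1 with VC (47.4%), 4 and 1 in WT (10.6%), and 7 and 1 with VC (27.5%). The days of an arm share its day 0 libraries and are not independent. Day 0 and day 4 libraries of an arm did not overlap for 40.8% of all genes in D/KO, 54.4% in D/KO with VC, 49.6% in WT and 53.8% in WT with VC, so separation alone is common here. The median log2 fold change of the 8 genes at day 4 was -0.96 in D/KO, -1.60 with VC, -0.29 in WT and -1.30 with VC, where the median over all genes lay between -0.012 and 0.026.

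**Figure D1:**
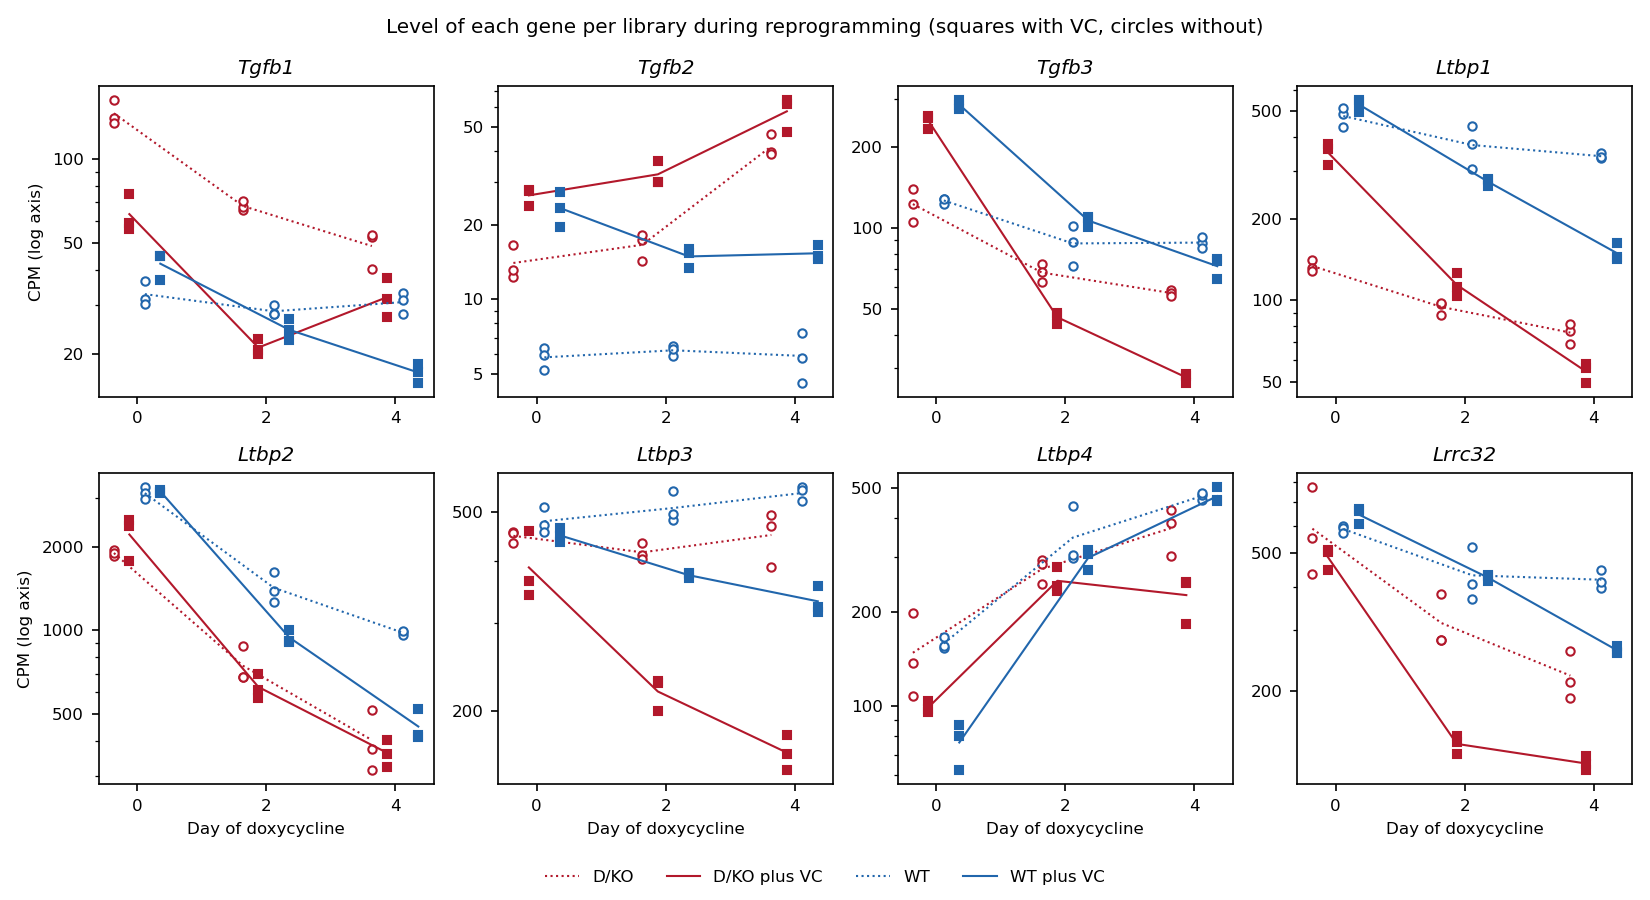
Each panel plots the level of a gene (CPM, log axis) in every reprogramming library against the day of doxycycline, for D/KO (red) and WT (blue) cells without (circles) and with VC (squares), with lines through the means of 3 libraries (dotted without VC, solid with VC). Ltbp2 and Lrrc32 decline in every arm, Ltbp4 climbs from 62.5 to 199 CPM at day 0 to 183 to 501 CPM at day 4, and Tgfb2 climbs in D/KO cells to between 38.7 and 64.1 CPM.

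Tgfb3, a ligand of mesenchymal and palatal tissue, fell in every arm. In D/KO cells it read 105, 123 and 139.6 CPM at day 0 and 58.7, 57.2 and 55.7 at day 4 (log2 fold change -1.10 ± 0.10, adjusted p = 3.47e-11). With VC it went from 255, 261 and 234 to 28.6, 28.1 and 26.5 CPM, a 9.01-fold drop (log2 fold change -3.17 ± 0.11, adjusted p = 3.46e-23). Every day 4 library lay below every day 0 library in both arms. In WT cells the fall was from 128, 123 and 128 to 87.9, 84.3 and 91.97 CPM without VC (log2 fold change -0.52 ± 0.10, adjusted p = 0.000146) and from 298, 286 and 276 to 75.1, 64.4 and 76.2 with it (log2 fold change -1.99 ± 0.10, adjusted p = 8.24e-18). By day 2 it had already changed by -0.85 in D/KO, -2.43 in D/KO with VC, -0.53 in WT and -1.43 in WT with VC on the log2 scale, all past the threshold. VC had raised the day 0 level. Against day 0 without VC, D/KO cells with VC changed by -1.40 at day 2 and -2.14 at day 4, and WT cells with VC by -0.25 (edgeR adjusted p = 0.0485) and -0.81.

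Tgfb1, the ligand best known for wound healing and immune control, fell in D/KO cells at both days. Its libraries read 140.2, 134 and 162 CPM at day 0, 65.8, 67.1 and 70.6 at day 2 and 52.5, 53.3 and 40.4 at day 4 (day 4 log2 fold change -1.58 ± 0.12, adjusted p = 4.35e-13). With VC they read 56.00, 75.1 and 59.2, then 20.7, 19.95 and 22.7, then 27.1, 37.4 and 31.5 CPM, so the lowest values came at day 2 (-1.59 ± 0.13, adjusted p = 8.6e-13) and day 4 lay between (-0.99 ± 0.12, adjusted p = 2.07e-08). VC had already lowered Tgfb1 at day 0, and against D/KO day 0 without VC these changes were -2.78 at day 2 and -2.19 at day 4. In WT cells without VC the values were 36.5, 31.6 and 30.3 CPM at day 0, 27.8, 27.8 and 29.9 at day 2 and 33.1, 27.8 and 31.3 at day 4, with log2 fold changes of -0.20 ± 0.13 (adjusted p = 0.343) and -0.09 ± 0.12 (adjusted p = 0.635) and intervals of -0.46 to 0.05 and -0.35 to 0.16. With VC the WT level fell, from 44.7, 36.9 and 44.9 CPM to 18.5, 17.3 and 15.8 at day 4 (log2 fold change -1.29 ± 0.13, adjusted p = 2.27e-10). D/KO cells started 4.44 times higher, and their day 4 libraries without VC (40.4 to 53.3 CPM) still lay above the WT ones (27.8 to 33.1 CPM).

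Tgfb2 was the ligand that rose in D/KO cells. It read 12.4, 13.1 and 16.6 CPM at day 0, 17.4, 18.2 and 14.3 at day 2 and 46.8, 39.6 and 38.7 at day 4, a 2.96-fold rise by day 4 (log2 fold change 1.57 ± 0.15, adjusted p = 6.27e-11) that was not yet past the threshold at day 2 (0.24 ± 0.15, adjusted p = 0.251). With VC it went from 23.8, 27.7 and 27.6 to 61.6, 64.1 and 47.5 CPM (log2 fold change 1.13 ± 0.14, adjusted p = 2.59e-08). Against D/KO day 0 without VC the changes with VC were 2.04 at day 4 and 1.19 at day 2 (edgeR adjusted p = 2.6e-08), the latter not past the threshold against day 0 with VC. The day 0 and day 4 libraries did not overlap in either arm. WT cells without VC stayed between 4.605 and 7.31 CPM in all 9 libraries (day 4 log2 fold change 0.02 ± 0.17, adjusted p = 0.961). With VC the WT level was lower at day 4 (14.5, 14.98 and 16.6 CPM) than at day 0 with VC (19.6, 27.3 and 23.5 CPM; log2 fold change -0.61 ± 0.15, adjusted p = 0.00103), yet higher than at day 0 without VC, from which it had risen by 1.40 on the log2 scale. The direction in this arm thus depends on which day 0 group is the reference.

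The make-up of the ligand transcripts shifted during reprogramming. Tgfb2 went from 3.58% ± 0.155 of the summed ligand RPKM at day 0 to 21.3% ± 1.31 at day 4, and with VC from 5.02% ± 0.514 to 40.5% ± 3.44, where it made up more than Tgfb3 (33.6% ± 2.27) or Tgfb1 (25.9% ± 3.44). In WT cells the Tgfb3 share went from 83.3% ± 1.18 to 78.5% ± 0.557, and with VC from 87.2% ± 0.806 to 77.7% ± 1.54, while that of Tgfb2 with VC went from 4.18% ± 0.76 to 9.74% ± 0.792. The sum itself dropped in D/KO cells from 67.5 ± 7.96 to 33.8 ± 2.398 RPKM, and with VC from 90.99 ± 5.64 to 24.5 ± 2.25. WT sums went from 44.8 ± 1.43 to 33.1 ± 1.37, and with VC from 97.1 ± 2.96 to 27.3 ± 1.97. No test was run on shares or sums.

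**Figure D2:**
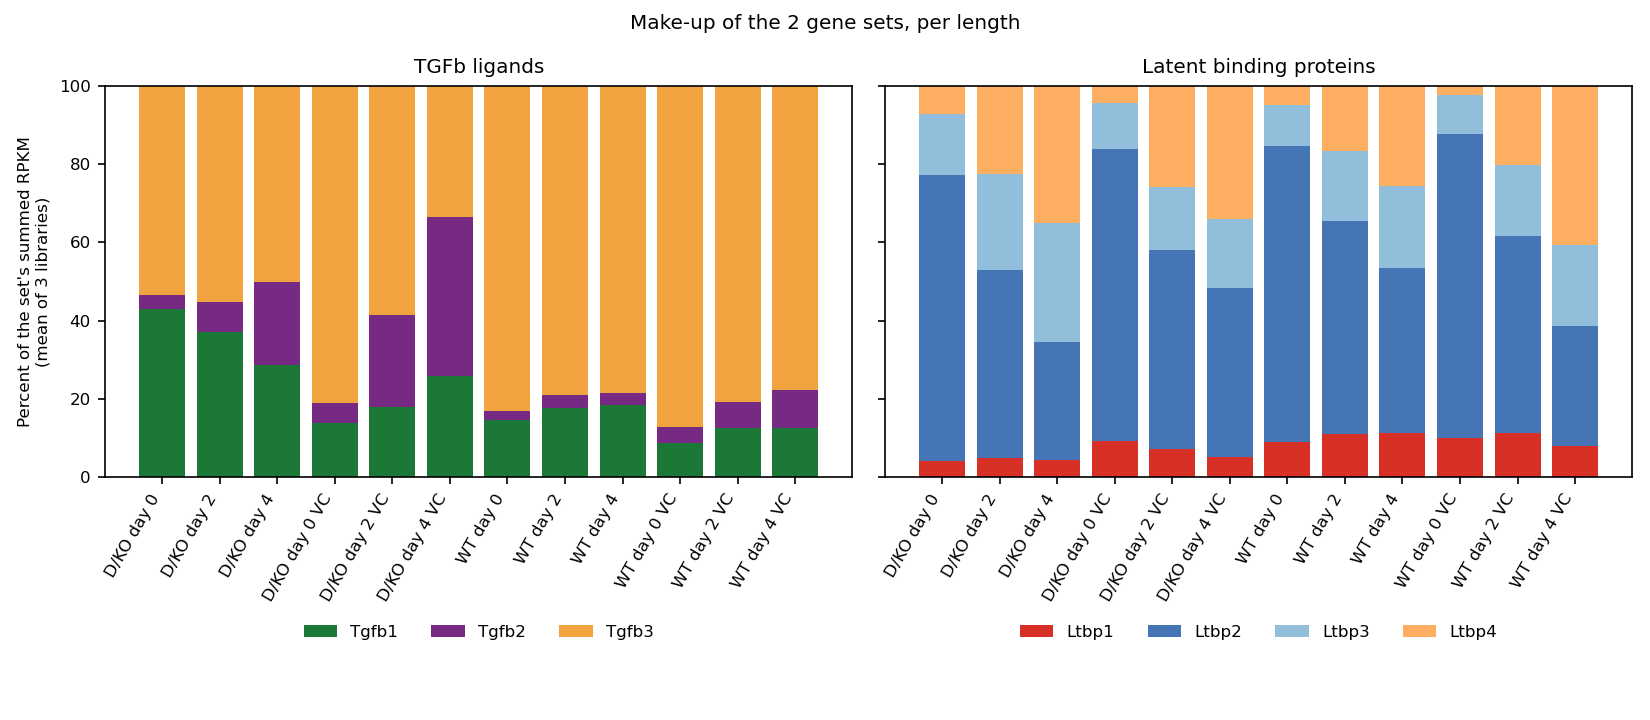
Stacked bars give each gene's percent of the summed RPKM of the 3 ligands (left) and of the 4 latent binding proteins (right) in the 12 reprogramming groups, as means of 3 libraries. The Tgfb2 segment widens in D/KO cells up to 40.5% at day 4 with VC, and the Ltbp4 segment widens in all arms while the Ltbp2 segment narrows.

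Ltbp2, at day 0 the most abundant of the binding protein transcripts, fell in every arm. D/KO libraries read 1944, 1851 and 1895 CPM at day 0, 681, 683 and 877 at day 2 and 377, 315 and 519.7 at day 4 (day 4 log2 fold change -2.23 ± 0.14, adjusted p = 3.09e-15). WT libraries read 3262, 3122 and 2956, then 1381, 1263 and 1625, then 990.1, 959 and 995 CPM (day 4 log2 fold change -1.67 ± 0.14, adjusted p = 1.61e-11). At each step the libraries separated without overlap. With VC the day 4 change was -2.61 ± 0.15 in D/KO and -2.80 ± 0.15 in WT cells, to 324 to 404 and 414 to 521 CPM.

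Ltbp1, which carries latent TGFb to fibronectin and fibrillin, also fell in every arm. Without VC it moved from 141, 132 and 128 to 77.1, 68.8 and 81.7 CPM in D/KO (log2 fold change -0.82 ± 0.11, adjusted p = 6.78e-08) and from 437, 488 and 514 to 349, 335 and 338 in WT cells (log2 fold change -0.49 ± 0.10, adjusted p = 0.000446). With VC it moved from 316, 379 and 362 to 56.03, 49.5 and 57.99 in D/KO (log2 fold change -2.69 ± 0.11, adjusted p = 5.4e-21) and from 498, 549.5 and 542 to 162, 141 and 144 in WT (log2 fold change -1.83 ± 0.11, adjusted p = 2.6e-16). No day 4 library reached the lowest day 0 library of its arm. VC had raised D/KO day 0 cells, and against D/KO day 0 without VC the D/KO changes with VC were -1.29 at day 4 and -0.23 at day 2, the latter no longer past the threshold (edgeR adjusted p = 0.0687). The WT day 2 fall without VC was smaller (-0.36 ± 0.10, adjusted p = 0.0202) and missed the threshold when only those 2 groups were fitted (adjusted p = 0.12) or without WT day 0 replicate 2 (-0.34), WT day 0 replicate 3 (-0.31) or WT day 2 replicate 2 (-0.23).

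Ltbp4, the carrier known for elastic fibre assembly, rose in every arm. In D/KO cells the libraries read 199, 138 and 108 CPM at day 0 and 425, 385 and 303 at day 4 (log2 fold change 1.32 ± 0.16, adjusted p = 1.48e-08), with a wide spread at day 0. In WT cells they read 167, 154 and 155 and 457, 473 and 479 (log2 fold change 1.57 ± 0.16, adjusted p = 1.34e-09). The rise in WT cells with VC was from 80.1, 86.9 and 62.5 to 501, 455 and 453 CPM (6.14-fold, log2 fold change 2.62 ± 0.17, adjusted p = 2.56e-15), and D/KO cells with VC went from 97.6, 104 and 95.8 to 247, 249 and 183 (1.19 ± 0.16, adjusted p = 7.73e-08). VC had lowered Ltbp4 at day 0, and against day 0 without VC the WT rise with VC was 1.57 and the D/KO rise 0.61 on the log2 scale. At day 4 the WT libraries read 453 to 501 CPM with VC and 457 to 479 CPM without it. Day 2 libraries of all arms already lay above their day 0 libraries.

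Ltbp3, the carrier known for roles in bone and teeth, was lower than at day 0 in both arms with VC and past the threshold in neither arm without it, a contrast between arms that was not tested. Without VC its day 4 change was 0.01 ± 0.10 in D/KO (interval -0.19 to 0.20) and 0.19 ± 0.10 in WT cells (interval -0.01 to 0.39), neither past the threshold. With VC it fell in D/KO cells from 341, 458 and 364 to 164, 179 and 153 CPM (log2 fold change -1.23 ± 0.10, adjusted p = 5.68e-13) and in WT cells from 465, 435 and 448 to 356, 316 and 322 (log2 fold change -0.44 ± 0.10, adjusted p = 0.000398). The WT day 2 value with VC, -0.27 ± 0.10 (adjusted p = 0.0404), missed the threshold when any 1 of its 6 libraries was left out (-0.29 to -0.24) or with no filter (adjusted p = 0.131). Among the 4 binding proteins, Ltbp2 dropped from 73.2% ± 1.82 to 30.2% ± 8.09 of the summed RPKM in D/KO cells and from 75.7% ± 0.884 to 42.1% ± 0.192 in WT cells, while Ltbp4 grew from 7.18% ± 1.95 to 35.1% ± 5.13 and from 4.88% ± 0.136 to 25.5% ± 0.733. The sum of the 4 fell from 317 ± 13.3 to 163 ± 8.85 RPKM in D/KO and from 503 ± 19.04 to 285 ± 4.51 in WT cells. Most of that sum at day 0 was Ltbp2, which does not bind TGFb. The carriers Ltbp1, Ltbp3 and Ltbp4 did not fall together. In D/KO cells without VC their means went from 12.5 to 7.10, 49.4 to 49.6 and 22.9 to 57.4 RPKM. In WT cells without VC they went from 44.9 to 31.9, 52.9 to 60.2 and 24.5 to 72.7 RPKM.

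Lrrc32, the surface anchor of latent TGFb, fell in every arm at day 4. D/KO libraries read 437, 555 and 773 CPM at day 0, 281, 281 and 383 at day 2 and 213, 191 and 261 at day 4 (day 4 log2 fold change -1.41 ± 0.14, adjusted p = 2.7e-10). With VC they went from 448, 509 and 506 to 119, 123 and 130.0 CPM (log2 fold change -1.97 ± 0.14, adjusted p = 4.02e-14). The D/KO day 0 libraries spread widely, but their lowest value was still above every day 2 and day 4 library of the arm. WT cells went from 598, 592 and 570.2 to 449, 396 and 413 CPM without VC (log2 fold change -0.48 ± 0.14, adjusted p = 0.00912) and from 608, 661 and 669 to 258, 271 and 260.3 with it (log2 fold change -1.30 ± 0.14, adjusted p = 1.74e-09). The WT day 2 value without VC (-0.44 ± 0.14, adjusted p = 0.0338) missed the threshold in 5 of the 6 fits that left out 1 of its libraries (-0.46 to -0.33), the exception being WT day 2 replicate 1. Lrrc32 is known from regulatory T cells, platelets and endothelium. In these libraries the immune and platelet markers summed to 4.16 to 6.58 CPM in D/KO and 18.8 to 31.5 in WT day 0 cells, and the endothelial ones to 513 to 599.7 and 14.7 to 17.6, while Lrrc32 had means of 588 and 587 CPM.

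**Figure D3:**
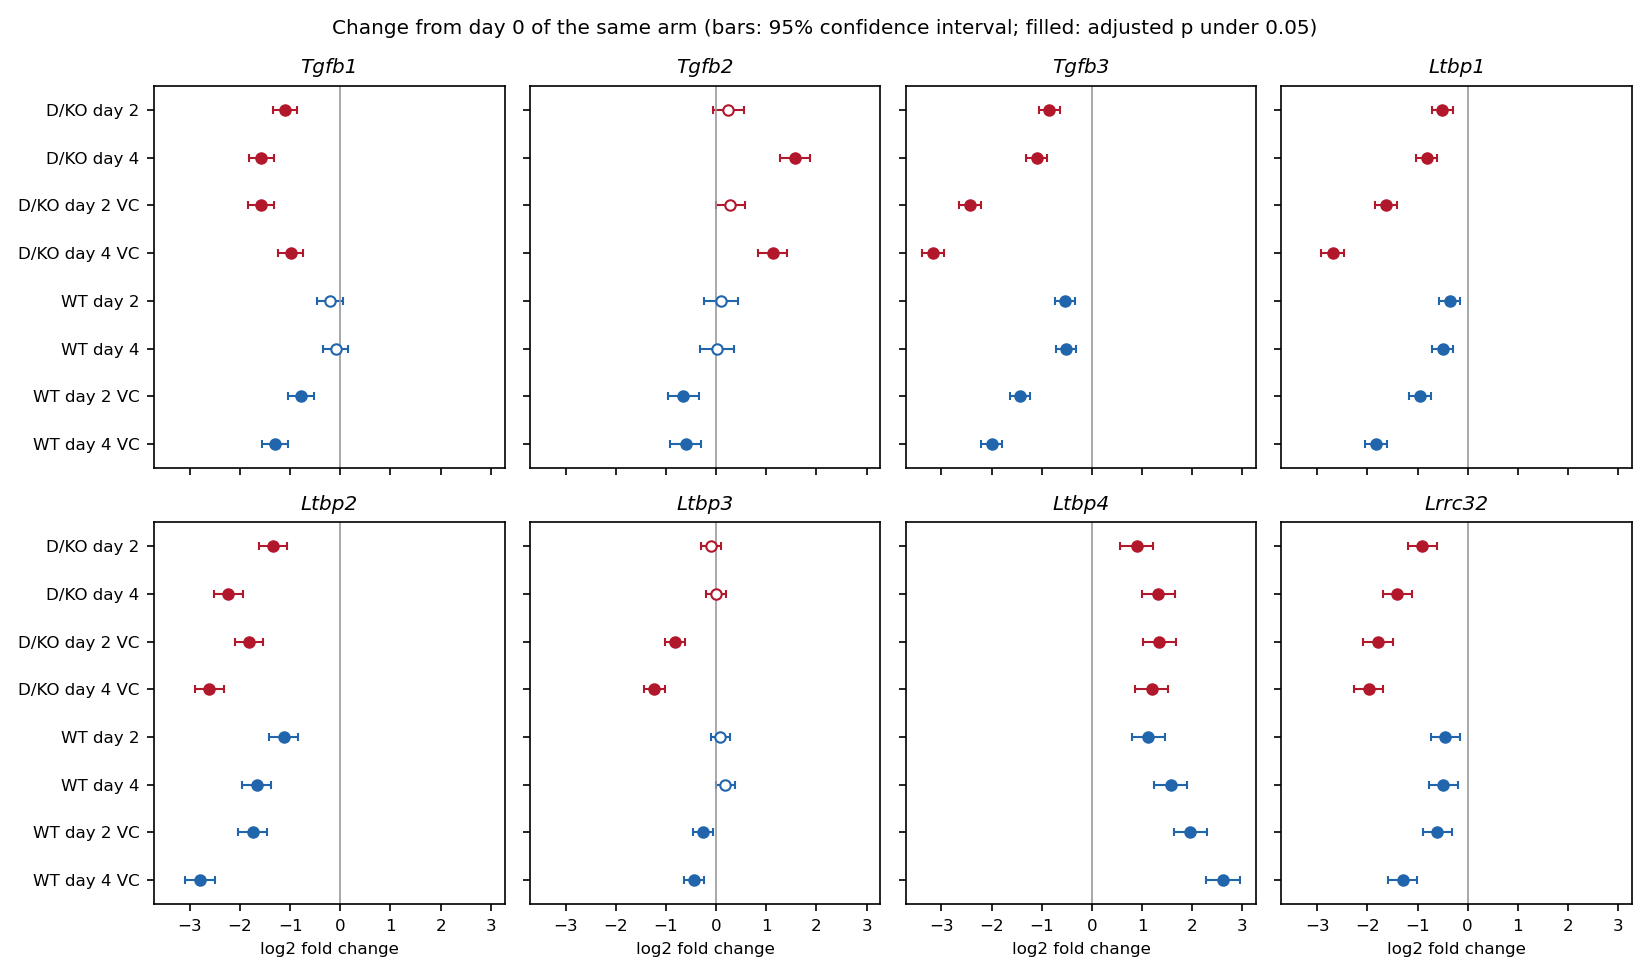
Points give the log2 fold change of each gene from day 0 of the same arm, with bars for the 95% confidence interval, in D/KO (red) and WT (blue) cells; filled points passed an adjusted p of 0.05. Tgfb3, Ltbp1, Ltbp2 and Lrrc32 lie left of 0 in all rows, Ltbp4 right of 0 in all rows, and Tgfb2 right of 0 only at day 4 in D/KO cells among the filled points, with filled points left of 0 in WT cells with VC.

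Markers of fibroblasts, epithelium and endothelium also changed, not in the same way in each arm. In D/KO cells with VC the 10 fibroblast markers summed to 191311 to 262778 CPM at day 0 and 36829 to 38432 at day 4, and without VC to 96785 to 132791 and 42862 to 44747. WT sums with VC were 162416 to 177866 and 64387 to 76004 CPM, and without VC 63237 to 63977 and 52618 to 54544. The fibroblast markers had 1 of 10 higher and 8 lower (median log2 fold change -1.74) in D/KO cells with VC, and 1 higher and 7 lower (-0.96) without it. In WT cells they had 2 of 10 higher and 6 lower (median log2 fold change -0.73) with VC, and 3 higher and 3 lower (0.19) without it. The 6 keratinocyte markers summed to 1.19 to 2.14 CPM at day 0 and 337 to 467 at day 4 in D/KO cells with VC, with 3 of 4 higher and 0 lower (median log2 fold change 7.93) among those tested, and to 0.695 to 1.53 and 10.2 to 12.1 in WT cells with VC, with 3 of 4 higher (3.87). Without VC their sum was 0.177 to 0.763 CPM at day 0 and 42.9 to 59.4 at day 4 in D/KO cells, with 4 of 4 higher (median log2 fold change 7.20), and 0.552 to 1.02 and 2.01 to 2.46 in WT cells, with 1 of 4 higher (4.24). The 5 endothelial markers summed to 513 to 599.7 CPM at day 0 and 303 to 329 at day 4 in D/KO cells, with 1 of 5 higher and 3 lower (median log2 fold change -0.70), and with VC to 197 to 234 and 379 to 511, with 2 higher and 2 lower (-0.39). In WT cells their sum was 14.7 to 17.6 CPM at day 0 and 95.5 to 95.9 at day 4, with 1 of 5 higher and 0 lower (median log2 fold change -0.82), and with VC 5.78 to 7.77 and 98.4 to 116, with 1 higher and 1 lower (-1.48). Of the 5 immune and platelet markers tested, 0 were higher and 1 to 3 lower in the 4 arms. Their part in the changes of the 8 genes was not tested.

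Whether D/KO cells changed by more or less than WT cells was itself tested with an interaction term. At day 4 without VC it passed the threshold for 5 of the 8 genes, 1 higher and 4 lower in D/KO, against 14.3% of all genes, and with VC for 6, 1 higher and 5 lower, against 29.4%. Tgfb2 changed by 1.55 ± 0.23 (adjusted p = 4.94e-06) more on the log2 scale in D/KO than in WT cells, and with VC by 1.74 ± 0.21 (adjusted p = 5.16e-08), or by 0.64 (adjusted p = 0.0327) against day 0 without VC in both lines. Tgfb1 changed by -1.48 ± 0.17 (adjusted p = 9.12e-08), so it fell further in D/KO cells, but with VC the difference at day 4 was 0.31 ± 0.18 (adjusted p = 0.197), with an interval of -0.05 to 0.67. Against day 0 without VC that difference was -1.25 (edgeR adjusted p = 1.36e-06), and VC alone had moved Tgfb1 by -1.20 in the D/KO line and 0.36 in the WT line. Tgfb3 fell further in D/KO cells without (-0.58 ± 0.14, adjusted p = 0.00415) and with VC (-1.18 ± 0.14, adjusted p = 8.38e-08), and so did Lrrc32 (-0.92 ± 0.20, adjusted p = 0.001 and -0.68 ± 0.20, adjusted p = 0.00867). With VC, Ltbp1 (-0.86 ± 0.15, adjusted p = 2.77e-05) and Ltbp3 (-0.79 ± 0.14, adjusted p = 3.79e-05) fell further in D/KO cells from day 0 with VC, and Ltbp4 rose less (-1.42 ± 0.23, adjusted p = 7.9e-06). The Ltbp1 direction depended on this reference, and against day 0 without VC its difference turned to 0.39 (edgeR adjusted p = 0.0588) at day 4 and 0.57 (adjusted p = 0.00465) at day 2. The Ltbp3, Ltbp4, Tgfb3 and Lrrc32 differences at day 4 stayed past the threshold with that reference, at -0.91, -0.95, -1.33 and -1.09. Ltbp2 showed -0.57 ± 0.19 (adjusted p = 0.0459) without VC, a call that was lost when only the groups compared were fitted (adjusted p = 0.0643) and in 11 of the 12 fits without 1 library (-0.60 to -0.42), the exception being D/KO day 4 replicate 3, and 0.20 ± 0.19 with VC. At day 2, 1 of 8 genes passed (6.54% of all genes), Tgfb1 at -0.90 ± 0.17 (adjusted p = 0.000742), and with VC 6 passed (13.9%). There Ltbp4 also passed with no filter (-0.62, adjusted p = 0.00422) or when only the groups compared were fitted (-0.64, adjusted p = 0.0124). Without D/KO day 0 replicate 1 the day 2 count became 2, with Lrrc32 at -0.63, and the values for Ltbp4 turned from -0.23 to 0.04 at day 2 and from -0.24 to 0.03 at day 4, none past the threshold. Fibroblast markers had 0 of 10 higher and 7 lower in the same test at day 4 (median -0.99), and likewise 0 and 7 with VC (-1.21), and their part was not tested. These differences belong to the lines as a whole, since genotype, sex and age change together.

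VC alone, before any doxycycline, raised Tgfb3 and Tgfb2 in both lines. Tgfb3 went from 105, 123 and 139.6 to 255, 261 and 234 CPM in D/KO (log2 fold change 1.03 ± 0.10, adjusted p = 3.57e-10) and from 128, 123 and 128 to 298, 286 and 276 in WT cells (log2 fold change 1.18 ± 0.10, adjusted p = 1.5e-11). Tgfb2 rose by 0.91 ± 0.15 in D/KO and by 2.01 ± 0.16 in WT cells on the log2 scale (adjusted p = 1.25e-05 and 3.34e-12), in WT from 6.35, 5.16 and 5.98 to 19.6, 27.3 and 23.5 CPM. In each of these the libraries with and without VC did not overlap, as for 31.3% of all genes in the D/KO line and 45.2% in the WT line. Tgfb1 fell with VC in D/KO cells, from 140.2, 134 and 162 to 56.00, 75.1 and 59.2 CPM (-1.20 ± 0.12, adjusted p = 9.36e-10), and was higher in WT cells by 0.36 ± 0.12 (adjusted p = 0.0251), a call lost without WT day 0 replicate 2 (0.34) or 3 (0.30) or WT day 0 plus VC replicate 1 (0.32) or 3 (0.31). Ltbp1 rose in D/KO cells, from 141, 132 and 128 to 316, 379 and 362 CPM (1.40 ± 0.11, adjusted p = 7.74e-13), and showed 0.14 ± 0.10 (adjusted p = 0.321) in WT cells, where it started higher. Ltbp4 fell with VC in WT cells (-1.05 ± 0.16, adjusted p = 3.45e-06) and in D/KO cells (-0.58 ± 0.16, adjusted p = 0.0059), the latter lost without D/KO day 0 replicate 1 (-0.31). In all, 3 genes were higher and 2 lower in D/KO (26.1% of all genes passed), and 3 higher and 1 lower in WT cells (29.4%). The difference between the lines in the response to VC alone was not tested. Summed fibroblast markers were higher with VC as well, from 96785 to 132791 up to 191311 to 262778 CPM in D/KO (6 of 10 higher, 2 lower, median log2 fold change 0.63) and from 63237 to 63977 up to 162416 to 177866 CPM in WT cells (6 higher, 1 lower, 0.49). Endothelial markers went from 513 to 599.7 down to 197 to 234 CPM in D/KO cells (1 of 5 higher, 4 lower, median log2 fold change -1.49) and from 14.7 to 17.6 down to 5.78 to 7.77 CPM in WT cells (0 higher, 1 lower, -0.15). The part of these markers in the response to VC was not tested.

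VC was also compared with its absence on each day of doxycycline, and whether its effect differed between days was not tested. At day 2, 4 genes were lower and 1 higher with VC in D/KO cells (25.3% of all genes passed), led by Tgfb1 (-1.68 ± 0.13, adjusted p = 1.52e-12) and Lrrc32 (-1.16 ± 0.14, adjusted p = 7.1e-08), and 3 lower and 2 higher in WT cells (26.6%). Ltbp1 in D/KO cells was not among them, but passed the threshold with DESeq2 (0.29, adjusted p = 0.033), with DESeq2 size factors or upper-quartile factors (adjusted p = 0.0431 and 0.0481) and when only the groups compared were fitted (0.27, adjusted p = 0.0126). Tgfb3 was the weaker of the WT rises (0.28 ± 0.10, adjusted p = 0.0338), lost with no filter (adjusted p = 0.0992), with upper-quartile factors (adjusted p = 0.0578), when only the groups compared were fitted (adjusted p = 0.142), and without WT day 2 replicate 2 (0.29) or 3 (0.16) or WT day 2 plus VC replicate 1 (0.27) or 3 (0.26). At day 4, 6 genes were lower and 1 higher with VC than without in D/KO cells (34.5% of all genes passed), and 6 lower and 1 higher in WT cells (22.4%), the higher one being Tgfb2 in both (D/KO 0.47 ± 0.14, adjusted p = 0.00842, WT 1.38 ± 0.16, adjusted p = 2.6e-08). The Tgfb2 call in D/KO cells was lost without D/KO day 4 plus VC replicate 2 (0.39). Ltbp3 changed with VC at day 4 by -1.45 ± 0.10 in D/KO and -0.72 ± 0.10 in WT cells, from 494, 469 and 388 to 164, 179 and 153 CPM in D/KO. Tgfb3 was lower with VC in D/KO cells (-1.04 ± 0.10, adjusted p = 6.52e-10), and in WT cells the smaller value of -0.29 ± 0.10 (adjusted p = 0.0326) missed the threshold with no filter (adjusted p = 0.102) and without WT day 4 replicate 1 (-0.30) or 3 (-0.26) or WT day 4 plus VC replicate 2 (-0.22). Ltbp2 was lower with VC in WT cells (-1.12 ± 0.14, adjusted p = 1.11e-07) and showed -0.15 ± 0.14 in D/KO cells, with an interval of -0.43 to 0.13. Ltbp4 was lower in D/KO cells (-0.71 ± 0.16, adjusted p = 0.000496), while the WT value was -0.001 with an interval of -0.32 to 0.32. At day 2, endothelial markers had 1 of 5 higher and 4 lower with VC in D/KO cells (median log2 fold change -1.32), and fibroblast markers had 7 of 10 higher and 0 lower in WT cells (0.54). At day 4 with VC against without, fibroblast markers had 1 of 10 higher and 5 lower (median log2 fold change -0.33) in D/KO and 6 higher and 3 lower (0.40) in WT cells. Keratinocyte markers had 2 of 4 tested higher and 0 lower with VC in D/KO cells at day 2 (1.23) and day 4 (1.90) and in WT cells at day 2 (0.47). In WT cells at day 4 they summed to 10.2 to 12.1 CPM with VC and 2.01 to 2.46 without it. The part of these markers was not tested.

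Partners of these genes were described from 4 lists. Matrix partners that hold or neighbour the latent complex (12 genes, among them fibrillins, fibronectin and fibulins) had 3 of 12 higher and 7 lower (median log2 fold change -0.49) in D/KO cells at day 4 and 2 of 12 higher and 9 lower (median log2 fold change -1.30) with VC. WT cells had 1 of 12 higher and 5 lower (median log2 fold change -0.22), and with VC 1 of 12 higher and 9 lower (median log2 fold change -0.82). The 3 with the smallest p in D/KO cells with VC were Efemp2 (fibulin-4) at -2.48 ± 0.10, Emilin1 at -1.99 ± 0.09 and the microfibril gene Fbn2 at -3.90 ± 0.21 on the log2 scale. All-gene medians in these comparisons are those given above, near 0.

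Genes that process or release latent TGFb (17 genes of furin-type proteases, integrin subunits, thrombospondin 1 and matrix proteases, 16 tested) had 3 of 16 higher and 11 lower (median log2 fold change -0.97) in D/KO cells with VC at day 4 and 2 of 16 higher and 7 lower (median log2 fold change -0.21) in WT cells with VC. Without VC the counts were 2 of 16 higher and 10 lower (median log2 fold change -0.67) in D/KO and 4 of 16 higher and 4 lower (median log2 fold change -0.02) in WT cells. Plat, the tissue plasminogen activator, changed by -2.89 ± 0.14, Thbs1, an activator of latent TGFb, by -2.87 ± 0.15 and Mmp14 by -1.52 ± 0.11 in D/KO cells with VC. Of 5 receptor genes 2 were higher and 2 lower there, the co-receptor Tgfbr3 at -1.62 ± 0.13, the type II receptor Tgfbr2 at -0.72 ± 0.09 and the endothelial type I receptor Acvrl1 at 0.76 ± 0.13. The receptors had 2 of 5 higher and 2 lower (median log2 fold change 0.30) in D/KO without VC, 2 of 5 higher and 0 lower (median log2 fold change 0.16) in WT and 3 of 5 higher and 0 lower (median log2 fold change 0.23) in WT with VC. TGFb-responsive genes (10 genes) had 1 of 10 higher and 8 lower (median log2 fold change -2.83) in D/KO cells with VC and 2 of 10 higher and 7 lower (median log2 fold change -1.52) in WT cells with VC. In the D/KO cells with VC, Acta2, the smooth muscle actin of myofibroblasts, stood at -4.30 ± 0.19, Tgfbi at -2.38 ± 0.10 and periostin (Postn) at -4.70 ± 0.22. Without VC they had 0 of 10 higher and 8 lower (median log2 fold change -1.58) in D/KO and 1 of 10 higher and 6 lower (median log2 fold change -0.80) in WT cells. Fn1 and Col1a1 stand in these lists and also among the fibroblast markers.

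In D/KO cells without the reprogramming factors, ALK5 inhibitors lowered Tgfb1, Ltbp2 and Lrrc32 and raised Ltbp1. The ALK2 inhibitor DMH-1 lowered Ltbp2 as well. With A83-01 (1 µM), 5 genes were higher and 3 lower than in control D/KO cells, where 32.6% of all genes passed. With Repsox (0.1 µM) 3 were higher and 3 lower (25.2%), with Vactosertib (0.1 µM) 2 and 3 (22.1%), and with the ALK2 inhibitor DMH-1 (1 µM) 1 and 1 (9.75%). Treated and control libraries did not overlap for 49.2% of all genes with A83-01, 36.4% with Repsox, 42.5% with Vactosertib and 32.0% with DMH-1. All 4 share the 3 control libraries, so their values stand side by side and are not independent. Ltbp1 went up with the 3 ALK5 inhibitors and down during reprogramming, in cells of another line and table.

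Tgfb1 read 91.7, 83.4 and 78.1 CPM in control D/KO cells, 62.4, 56.2 and 56.8 with Repsox, 61.6, 57.4 and 57.6 with Vactosertib and 33.8, 36.5 and 33.9 with A83-01. No library of these overlapped the controls, with log2 fold changes of -0.53 ± 0.10 (adjusted p = 0.000643), -0.51 ± 0.10 (adjusted p = 0.0011) and -1.28 ± 0.10 (adjusted p = 3.8e-08). DMH-1 gave 68.1, 67.2 and 73.3 CPM, below all controls but not past the threshold (-0.28 ± 0.10, adjusted p = 0.0895; DESeq2 adjusted p = 0.0367). Tgfb2 was low throughout, at 11.03, 11.7 and 9.503 CPM in controls and 12.4 to 20.7 over the treated libraries, which lay above all controls. Its rises were 0.71 ± 0.18 (adjusted p = 0.00787) with Repsox, 0.58 ± 0.18 (adjusted p = 0.0294) with Vactosertib, 0.64 ± 0.18 (adjusted p = 0.0123) with A83-01 and 0.76 ± 0.18 (adjusted p = 0.0128) with DMH-1. Most of these calls depended on single libraries or on the set of libraries fitted. The Repsox one was lost when only the 2 groups were fitted (0.69, adjusted p = 0.0666). The Vactosertib one was lost in 4 of 6 fits without 1 library (Vactosertib replicate 1, 0.47, or 2, 0.54, control replicate 1, 0.60, or 3, 0.51), the A83-01 one without A83-01 replicate 2 (0.49) or control replicate 3 (0.56), and the DMH-1 one without DMH-1 replicate 2 (0.71) or control replicate 3 (0.68). Tgfb3 rose with A83-01, from 129.7, 141 and 148 to 183, 193 and 177 CPM (0.40 ± 0.09, adjusted p = 0.00317). Its Repsox value of 0.29 ± 0.09 (adjusted p = 0.0325) was lost with all 24 libraries (adjusted p = 0.183), with no filter (adjusted p = 0.107), when only the 2 groups were fitted (adjusted p = 0.195), and without Repsox replicate 1 (0.21) or 3 (0.27) or control replicate 1 (0.23) or 2 (0.29). Vactosertib and DMH-1 gave 0.14 ± 0.09 and -0.26 ± 0.09, not past the threshold, though the DMH-1 value passed with upper-quartile factors (-0.29, adjusted p = 0.0417).

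**Figure D4:**
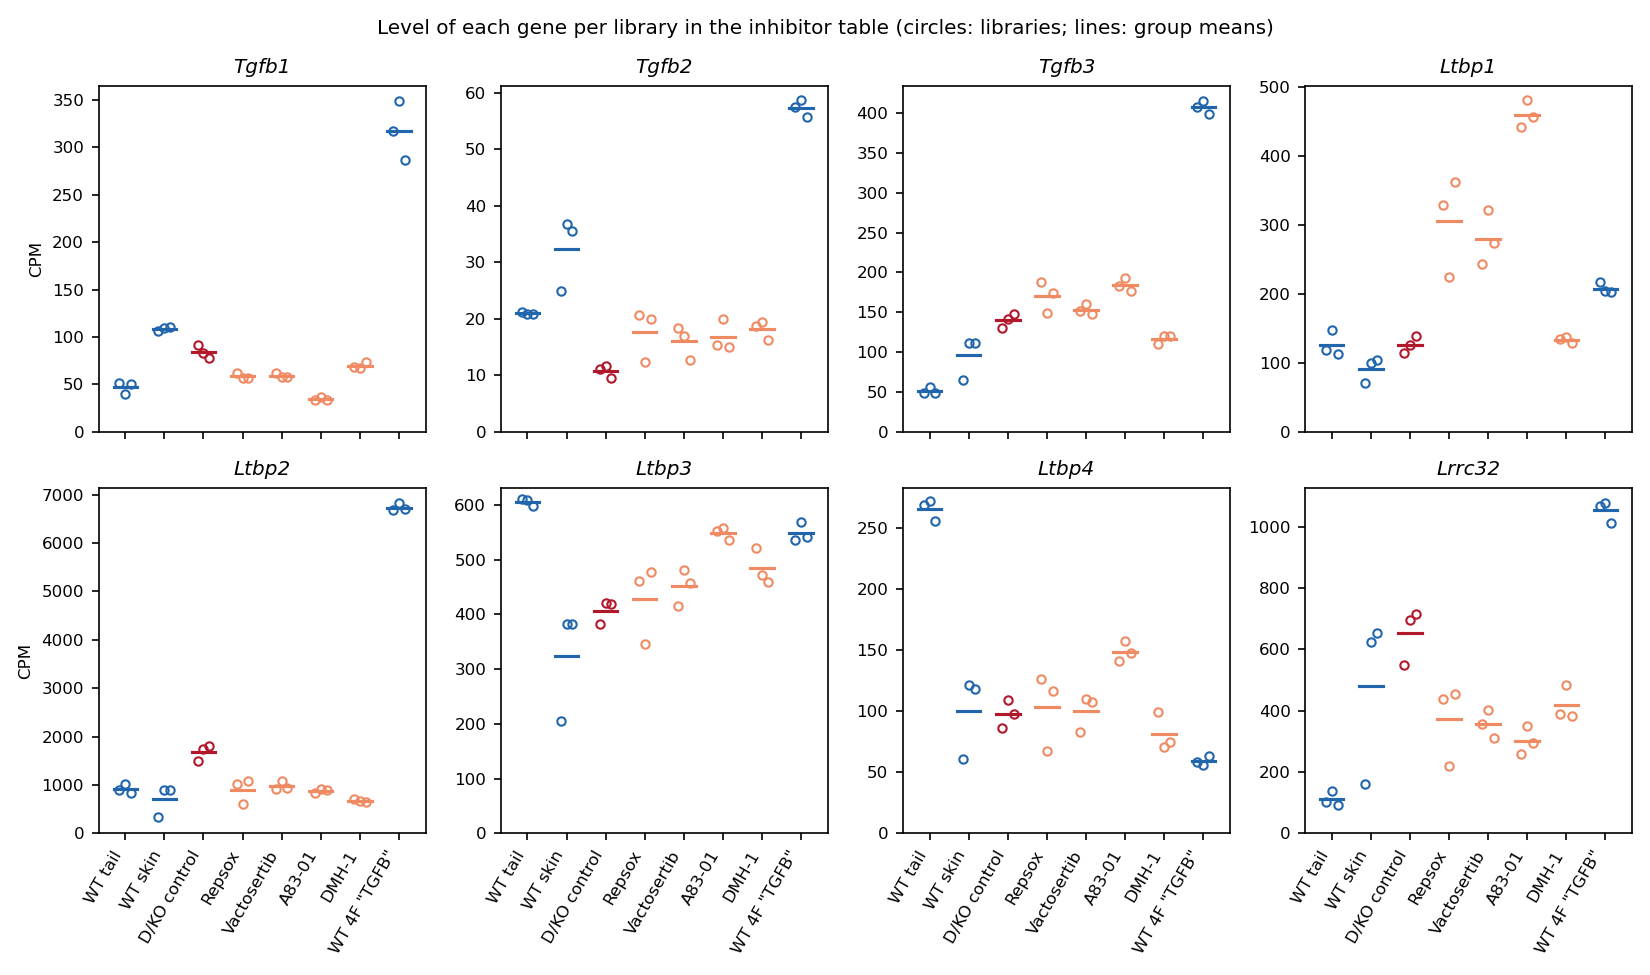
Each panel plots a gene's CPM in the 24 libraries of the inhibitor table, with circles for libraries and lines for the means of 3, in WT (blue), control D/KO (red) and inhibitor-treated D/KO cells (orange). Ltbp1 sits at 443 to 482 CPM with A83-01 against 115 to 139 in control D/KO cells, 1 skin and 1 Repsox library lie below their mates for Ltbp2 and Lrrc32, and the cells labelled TGFB are highest in 5 of 8 panels.

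The binding proteins split. Ltbp1 read 115, 126 and 139 CPM in controls and rose to 443, 482 and 458 with A83-01, a 3.63-fold rise (log2 fold change 1.86 ± 0.15, adjusted p = 7.99e-08). Repsox gave 329.9, 225 and 363 CPM (1.27 ± 0.15, adjusted p = 8.5e-06) and Vactosertib 244, 322 and 274 (1.15 ± 0.15, adjusted p = 2.99e-05), again clear of the controls. DMH-1 libraries, at 134, 137 and 128 CPM, overlapped them (0.08 ± 0.15, adjusted p = 0.837, interval -0.24 to 0.39). Ltbp2 fell with all 4 inhibitors, from 1494, 1742 and 1814 CPM to 831, 919 and 890.3 with A83-01 (-0.94 ± 0.16, adjusted p = 0.000225) and 715, 675 and 645 with DMH-1 (-1.31 ± 0.16, adjusted p = 4.92e-05), and changed by -0.90 ± 0.16 (adjusted p = 0.000496) with Repsox and -0.77 ± 0.16 (adjusted p = 0.00211) with Vactosertib. Ltbp3 rose with A83-01 only among the calls, to 552, 557 and 536 from 382, 419.9 and 418 CPM (0.43 ± 0.10, adjusted p = 0.00416, and adjusted p = 0.055 when all 24 libraries entered the fit). Ltbp4 with A83-01 read 141, 157 and 148 against 86.1, 109 and 98.04 CPM (0.60 ± 0.19, adjusted p = 0.0188), a call lost without A83-01 replicate 2 (0.56) or control replicate 1 (0.52) or 3 (0.61).

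Lrrc32 fell from 549.8, 696 and 714 CPM in controls to 259, 350.0 and 296 with A83-01 (log2 fold change -1.12 ± 0.23, adjusted p = 0.00101). It read 356, 403 and 312 with Vactosertib (-0.86 ± 0.23, adjusted p = 0.0104) and 439, 221 and 455 with Repsox (-0.82 ± 0.23, adjusted p = 0.0129), where replicate 2 was the low one. DMH-1 gave 390.2, 484 and 382 CPM (-0.64 ± 0.22, adjusted p = 0.0863), below all controls but not past the threshold. It did pass with DESeq2 (adjusted p = 0.049), with no filter (edgeR adjusted p = 0.0231) and when only the 2 groups were fitted (edgeR adjusted p = 0.00846). The Repsox call was lost when only the 2 groups were fitted (adjusted p = 0.0786) or without control replicate 3 (-0.75) and the Vactosertib call without Vactosertib replicate 3 (-0.78), and with all 24 libraries in the fit the adjusted p was 0.1 and 0.0838. Without Repsox replicate 2, the Repsox values were -0.55 ± 0.18 (adjusted p = 0.0279) for Lrrc32, 1.45 ± 0.12 (adjusted p = 1.01e-07) for Ltbp1, -0.68 ± 0.11 (adjusted p = 0.000158) for Ltbp2, -0.51 ± 0.11 (adjusted p = 0.00211) for Tgfb1, 0.91 ± 0.15 (adjusted p = 0.000269) for Tgfb2 and 0.37 ± 0.09 (adjusted p = 0.00464) for Tgfb3, and Ltbp3 and Ltbp4 remained below the threshold.

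**Figure D5:**
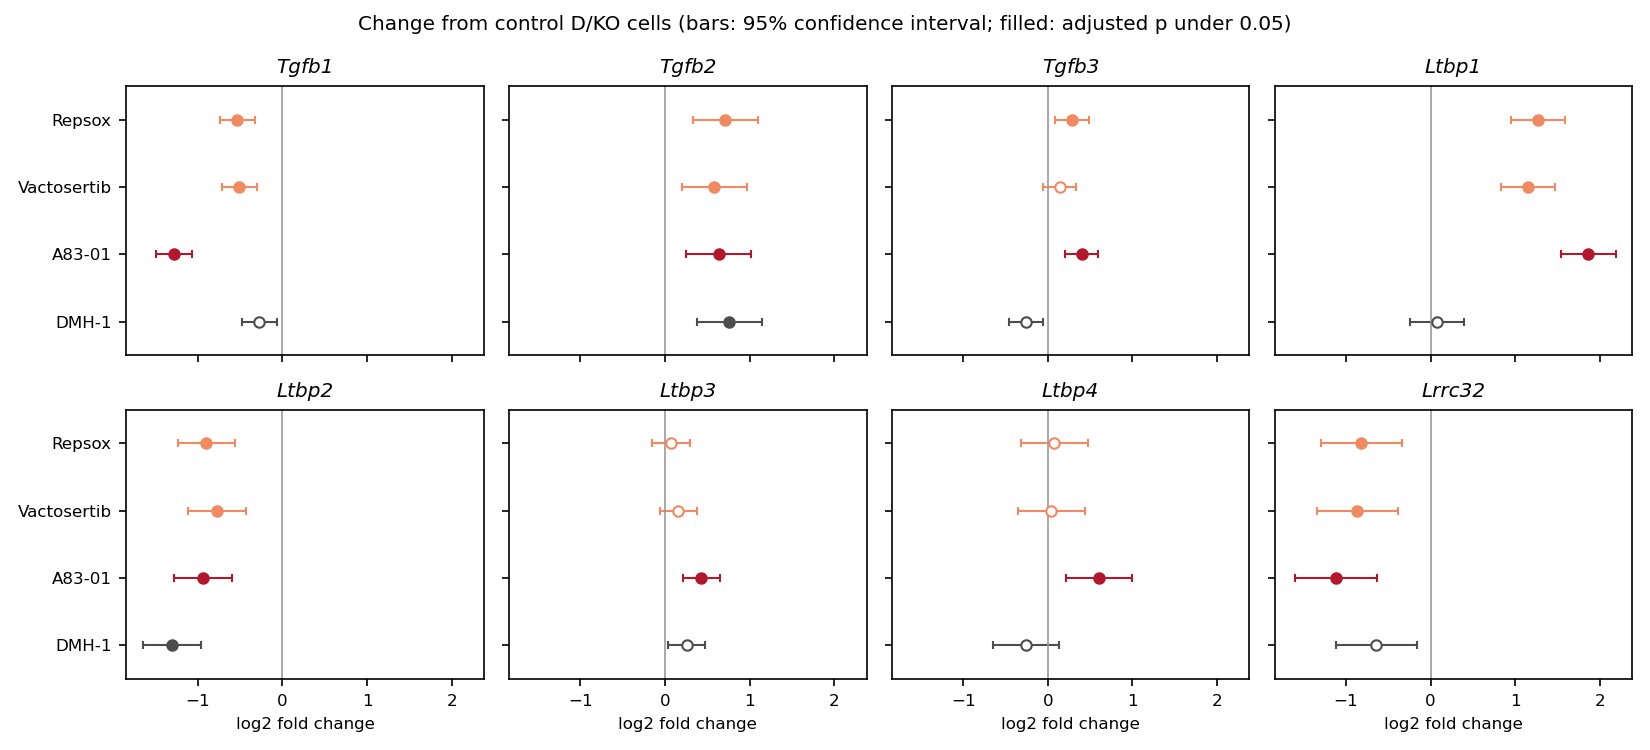
Points give the log2 fold change of each gene from control D/KO cells for Repsox and Vactosertib (orange), A83-01 (red) and DMH-1 (grey), with bars for the 95% confidence interval and filled points where the adjusted p was under 0.05. Ltbp1 lies at 1.15 to 1.86 for the ALK5 inhibitors and at 0.08 for DMH-1, and Ltbp2 lies left of 0 for all 4.

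Matched doses allowed 2 direct comparisons. At 0.1 µM, Repsox and Vactosertib differed in 0 of the 8 genes and in 0 of all 15164 genes tested in edgeR (0% called, 452 genes at an unadjusted p under 0.05, 8 genes called by DESeq2). The log2 difference of Repsox over Vactosertib lay between -0.13 (Ltbp2, interval -0.46 to 0.21) and 0.15 (Tgfb3, interval -0.05 to 0.34), and the widest interval was that of Lrrc32 (-0.43 to 0.52), so differences within these bounds remain possible. Without Repsox replicate 2 again 0 of the 8 genes passed, with values of 0.33 ± 0.15 for Tgfb2, 0.31 ± 0.17 for Lrrc32, 0.29 ± 0.12 for Ltbp1, 0.26 ± 0.14 for Ltbp4, 0.23 ± 0.09 for Tgfb3, 0.04 ± 0.08 for Ltbp3 and 0.0021 ± 0.11 for Tgfb1 (edgeR adjusted p from 0.556 to 0.996), and Ltbp2 turned from -0.13 to 0.09 ± 0.11 (adjusted p = 0.738). At 1 µM, A83-01 and DMH-1 differed in 4 of the 8 genes (25.4% of all genes passed). Ltbp1 was 3.45 times higher with A83-01 (log2 fold change 1.79 ± 0.15, adjusted p = 1.88e-07), Ltbp4 higher by 0.86 ± 0.19 (adjusted p = 0.00236), Tgfb3 higher by 0.66 ± 0.09 (adjusted p = 5.12e-05) and Tgfb1 lower, at -1.01 ± 0.10 (adjusted p = 9.26e-07). The other four had intervals of -0.50 to 0.25 (Tgfb2), 0.03 to 0.71 (Ltbp2), -0.05 to 0.39 (Ltbp3) and -0.95 to -0.0035 (Lrrc32), and adjusted p-values from 0.103 to 0.682. When only these 2 groups were fitted, Ltbp2 (0.37, adjusted p = 0.00887) and Lrrc32 (-0.48, adjusted p = 0.0163) passed as well. Fibroblast markers had 2 of 10 higher and 5 lower with A83-01 against DMH-1 (median log2 fold change -0.42), endothelial ones 1 of 5 and 3 (-1.46) and immune and platelet ones 2 of 4 tested and 0 (1.17), and their part was not tested. A83-01 was used at 10 times the concentration of Repsox and Vactosertib, so no comparison is made between it and them.

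Among the lists, TGFb-responsive genes had 0 of 10 higher and 8 lower (median log2 fold change -2.03) with A83-01, 0 of 10 higher and 7 lower (median log2 fold change -1.25) with Repsox, 0 of 10 higher and 7 lower (median log2 fold change -1.29) with Vactosertib and 1 of 10 higher and 6 lower (median log2 fold change -0.67) with DMH-1, beside medians over all genes between 0.00265 and 0.0196. Tgfbi changed by -2.92 ± 0.12, Ccn2 by -2.48 ± 0.11 and Pmepa1, a feedback inhibitor of the pathway, by -1.80 ± 0.08 with A83-01. Matrix partners had 3 of 12 higher and 6 lower (median log2 fold change -0.54) with A83-01, 3 of 12 higher and 4 lower (median log2 fold change -0.44) with Repsox, 3 of 12 higher and 3 lower (median log2 fold change -0.17) with Vactosertib and 2 of 12 higher and 2 lower (median log2 fold change -0.12) with DMH-1. With A83-01, Fbln2 changed by -3.30 ± 0.17, elastin (Eln) by 2.40 ± 0.16 and Fbln5, which guides elastin onto microfibrils, by 0.80 ± 0.09. Processing genes had 2 of 16 higher and 8 lower (median log2 fold change -0.35) with A83-01, 3 of 16 higher and 8 lower (median log2 fold change -0.41) with Repsox, 2 of 16 higher and 7 lower (median log2 fold change -0.31) with Vactosertib and 3 of 16 higher and 2 lower (median log2 fold change -0.23) with DMH-1. With A83-01 the proprotein convertases Pcsk5 (-3.73 ± 0.21) and Pcsk6 (1.84 ± 0.15) and the integrin subunit Itgb3 changed as well, the last at -1.61 ± 0.16. Of the 5 receptors, 2 were lower, Tgfbr1, the receptor these compounds target, at -1.01 ± 0.15 and Acvrl1 at -0.26 ± 0.07, and Tgfbr3 stood at 0.39 ± 0.16, not past the threshold. Without Repsox replicate 2 the Repsox counts were 0 of 10 higher and 7 lower (median log2 fold change -1.19) for TGFb-responsive genes, 3 of 12 and 4 (-0.37) for matrix partners and 3 of 16 and 8 (-0.37) for processing genes, where 24.9% of all genes passed. Fibroblast markers summed to 88891 to 100869 CPM in controls and 47875 to 51477 with A83-01, and endothelial markers to 240.3 to 289 and 106 to 144. The fibroblast markers had 1 of 10 higher and 6 lower (median log2 fold change -0.64) with A83-01, 1 and 4 (-0.44) with Repsox, also 1 and 4 (-0.30) without its replicate 2, 1 and 4 (-0.39) with Vactosertib and 2 and 1 (-0.12) with DMH-1. Immune and platelet markers summed to 5.02 to 6.60 CPM in controls and 8.55 to 14.3 with the 3 ALK5 inhibitors, with 3 of 4 tested higher with Repsox (median log2 fold change 1.91, and 2 of 5 without its replicate 2), 3 with Vactosertib (1.57) and 2 with A83-01 (1.47). Their part in these results was not tested.

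Control D/KO cells of the inhibitor table differed from WT tail tip cells in 7 of the 8 genes, 4 higher and 3 lower, where 40.2% of all genes passed. Lrrc32 read 549.8, 696 and 714 CPM in D/KO against 102, 139.7 and 92.4 in WT (log2 fold change 2.57 ± 0.24, adjusted p = 1.89e-07). Tgfb3 (1.47 ± 0.10, adjusted p = 2.44e-09), Ltbp2 (0.88 ± 0.16, adjusted p = 0.000319) and Tgfb1 (0.86 ± 0.10, adjusted p = 2.46e-06) were also higher, and Ltbp4 (-1.43 ± 0.19, adjusted p = 1.15e-05), Tgfb2 (-0.95 ± 0.18, adjusted p = 0.00048) and Ltbp3 (-0.56 ± 0.10, adjusted p = 0.000376) lower in D/KO. Against the WT reference used in each table, Tgfb1 was thus higher in D/KO cells. Tgfb2 and Ltbp2 differed in opposite directions in the 2 tables, whose WT lines differ. Control D/KO cells, at 78.1 to 91.7 CPM of Tgfb1, lay below WT skin (106 to 111) and the TGFB-labelled WT cells (286 to 349). Age (4 and 14 weeks) and genotype cannot be told apart here. Endothelial markers summed to 240.3 to 289 CPM in D/KO and 57.95 to 76.2 in WT, and keratinocyte markers to 0.17 to 0.826 and 11.1 to 13.7. Their part was not tested.

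WT skin differed from WT tail tip cells in 7 of the 8 genes, 4 higher and 3 lower (34.2% of all genes passed), and without skin replicate 1 in 6, 4 higher and 2 lower (38.7%). When only these 2 groups were fitted, 4 of the 8 passed, and Tgfb2 (0.64, adjusted p = 0.0661), Ltbp1 (-0.46, adjusted p = 0.198) and Ltbp3 (-0.89, adjusted p = 0.0578) did not. Lrrc32 read 161, 625 and 652 CPM in skin and 102, 139.7 and 92.4 in tail tip, with skin replicate 1 far below its mates (2.11 ± 0.35, adjusted p = 7.17e-05, without it 2.52 ± 0.23, adjusted p = 2.85e-08). Tgfb1 read 106, 109 and 111 CPM against 51.5, 39.6 and 50.1 (1.21 ± 0.10, adjusted p = 1.05e-08, without it 1.22 ± 0.11, adjusted p = 1.52e-08), and Tgfb3 64.5, 111 and 112 against 48.3, 55.5 and 48.3 (0.92 ± 0.15, adjusted p = 4.48e-05, without it 1.14 ± 0.10, adjusted p = 8.95e-09). These were higher in every skin library than in any tail tip library, and 37.0% of all genes did not overlap. Ltbp4 was lower in skin at 60.5, 121 and 118 against 268, 272 and 256 CPM (-1.41 ± 0.23, adjusted p = 4.65e-05, without it -1.15 ± 0.20, adjusted p = 9.95e-05), and so was Ltbp3 (-0.91 ± 0.16, adjusted p = 0.000179, without it -0.67 ± 0.11, adjusted p = 6.67e-05). Tgfb2 was higher (0.63 ± 0.18, adjusted p = 0.0102, without it 0.78 ± 0.18, adjusted p = 0.00144), a call lost without skin replicate 2 (0.52). Ltbp1 was lower, at -0.47 ± 0.16 (adjusted p = 0.0286), a call lost without skin replicate 1 (-0.31 ± 0.16, adjusted p = 0.12) or tail tip replicate 2 (-0.35), and Ltbp2 moved from -0.39 ± 0.25 to -0.05 ± 0.16 (adjusted p = 0.825). Muscle markers (Myod1, Myog, Des and Myh3) summed to 67.9 to 92.6 CPM in skin and 2.09 to 3.76 in tail tip libraries. Endothelial markers summed to 116 to 209 CPM in skin and 57.95 to 76.2 in tail tip, with 4 of 5 higher and 1 lower (median log2 fold change 2.24, without skin replicate 1 4 higher, 1 lower and 2.39), and keratinocyte markers to 1.70 to 1.95 and 11.1 to 13.7. Their part in these differences was not tested.

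The 3 libraries labelled TGFB had the highest levels of Tgfb1, Tgfb2, Tgfb3, Ltbp2 and Lrrc32 in the inhibitor table. Tgfb1 read 318, 349 and 286 CPM, Tgfb2 57.4, 58.7 and 55.7 and Tgfb3 408, 416 and 398. Ltbp2 reached 6673, 6819 and 6709 CPM, or 823 ± 9.32 RPKM, and made up 90.2% ± 0.0301 of the binding protein sum. Ltbp4 had its lowest group mean of the table, with libraries at 58.1, 56.4 and 63.03 CPM. Against WT tail tip cells, 6 of the 8 genes were higher and 1 lower (62.2% of all genes passed, and the median over all genes was shifted by -0.11 on the log2 scale). The log2 fold changes were 2.76 ± 0.11 for Tgfb1, 1.45 ± 0.18 for Tgfb2, 3.01 ± 0.16 for Tgfb3, 0.72 ± 0.16 for Ltbp1, 2.87 ± 0.26 for Ltbp2, 3.24 ± 0.37 for Lrrc32 and -2.17 ± 0.23 for Ltbp4, and -0.14 ± 0.16 for Ltbp3, which did not pass. The reference cells are another line (ERCC1_(+/+)_WT, 14 weeks), so line, age and treatment cannot be told apart. Endothelial markers summed to 1.24 to 1.93 CPM in the TGFB-labelled and 57.95 to 76.2 in the tail tip cells (0 of 5 higher, 4 lower, median log2 fold change -5.17), and keratinocyte markers to 0.321 to 0.571 and 11.1 to 13.7. Immune and platelet markers had 3 higher and 1 lower of 5 tested (median log2 fold change 1.62), although their sum was 4.03 to 6.23 CPM against 18.02 to 23.8, and the part of these markers was not tested. Cells of the same label, sex and age stand in the other table as WT day 0 without doxycycline or VC, where Tgfb1 read 30.3 to 36.5 CPM, Tgfb2 5.16 to 6.35, Tgfb3 123 to 128, Ltbp2 2956 to 3262, Ltbp4 154 to 167 and Lrrc32 570.2 to 598. The tables were normalised separately, and no test was run between them.

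For each of the 8 genes the 3 genes with the most similar pattern were found over 14941 genes, by the mean of Pearson's r over the 12 group means of the reprogramming table and over the 8 of the inhibitor table. This is a description over 20 group means that share control groups and lines. Tgfb1 was most like Slc35e1 (0.96), Edem1 (0.95) and Pak2 (0.95), Tgfb2 like Atp1b3 (0.91), Snrpb (0.90) and Ap1s2 (0.90), and Tgfb3 like Mfge8 (0.94) and Fam149b (0.94). Ltbp1 was most like Syde2 (0.97), Prkg1 (0.95) and Ror2 (0.93), Ltbp2 like Sync (0.93) and Tpm1 (0.92), Ltbp3 like Arhgap10 (0.87), Klhl22 (0.87) and Lzts3 (0.84) and Ltbp4 like Vstm5 (0.93), Slc49a3 (0.89) and Sirt3 (0.89). For Lrrc32 they were Tsc22d2 (0.94), Tnc (0.93) and Dnajb5 (0.93). Tpm1 is a tropomyosin of stress fibres, Tnc the matrix protein tenascin C and Mfge8 a secreted glycoprotein. With Spearman's rho only 7 of the 24 genes found recurred, with the reprogramming table alone 1, and without WT skin replicate 1 and Repsox replicate 2 (an alternative chosen after seeing the data) 15, so the genes found depend on the measure.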

How the data were processed

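RNA from 60 libraries, 3 in each of 20 groups taken from the labels, had been sequenced by the authors as 150 bp read pairs. Per the submitters' processing notes and the study's methods, the authors used FastQC, Trim Galore, HISAT2 on GRCm39 and featureCounts of Subread, and deposited raw counts per gene in 2 tables with a length per gene. Tool versions, annotation release and strand setting are not given in the sources used here. Symbols came from GENCODE M39 for 56236 of 56980 genes. Counts were tested in R 4.3.3 with edgeR 4.0.16 (TMM, filterByExpr with a count minimum of 10 and a total minimum of 15, quasi-likelihood F-test, Benjamini-Hochberg over all tested genes, threshold 0.05). The fits held 36 libraries and 15832 genes (reprogramming), 18 libraries and 15164 genes (inhibitors and control D/KO against WT), or 24 libraries and 15652 genes (skin and TGFB-labelled cells). CPM and RPKM are TMM-scaled, and standard errors and 95% intervals come from the same fits. The procedure was tested on simulated counts. Library totals, given in the report, set the precision of counting, and intervals cover the spread between libraries.

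All 8 genes were described in every comparison, with the 3 genes most like each, and of each list at most the 3 ranked by p, in D/KO cells with VC at day 4 and with A83-01, were named. A few items are not reported here. Members and lists were chosen with earlier results of these data known. Alternatives were DESeq2 1.42.0, DESeq2 or upper-quartile size factors, no filter, other sets of libraries, day 0 without VC as the reference (for differences between lines chosen after seeing the data, as was likeness without the 2 libraries that stood apart), unscaled totals for RPKM, other likeness measures, and leaving out each library.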

Additional observations from a re-analysis of the deposited data

Results flagged for a closer look

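The change from day 0 differed between D/KO and WT cells, by the interaction term of the edgeR fit over 36 libraries, in 18 of the 32 tests on the 8 genes (adjusted p under 0.05). It passed for 1 of 8 genes on day 2, 5 on day 4, 6 on day 2 with VC and 6 on day 4 with VC, where 6.54%, 14.3%, 13.9% and 29.4% of all genes passed. Each value is the D/KO minus the WT log2 fold change ± SE. For Tgfb1 it was -0.90 ± 0.17 on day 2, -1.48 ± 0.17 on day 4, and -0.80 ± 0.18 on day 2 with VC. For Tgfb2 it was 1.55 ± 0.23 on day 4, 0.94 ± 0.21 on day 2 with VC, and 1.74 ± 0.21 on day 4 with VC. For Tgfb3 it was -0.58 ± 0.14 on day 4, -0.996 ± 0.14 on day 2 with VC, and -1.18 ± 0.14 on day 4 with VC. For Ltbp1 it was -0.68 ± 0.15 on day 2 with VC, and -0.86 ± 0.15 on day 4 with VC. For Ltbp2 it was -0.57 ± 0.19 on day 4. For Ltbp3 it was -0.56 ± 0.14 on day 2 with VC, and -0.79 ± 0.14 on day 4 with VC. For Ltbp4 it was -1.42 ± 0.23 on day 4 with VC. For Lrrc32 it was -0.92 ± 0.20 on day 4, -1.18 ± 0.20 on day 2 with VC, and -0.68 ± 0.20 on day 4 with VC. The Ltbp2 difference fell short of the threshold in 11 of the 12 fits that left out 1 library. With day 0 without VC as the reference, an alternative chosen after seeing the data, the values with VC for Ltbp1 became 0.57 on day 2 (adjusted p = 0.00465) and 0.39 on day 4 (adjusted p = 0.0588), and those for Tgfb2 became -0.17 (adjusted p = 0.653) and 0.64 (adjusted p = 0.0327). Tgfb1 then passed on both days, at -2.36 (adjusted p = 3.1e-12) and -1.25 (adjusted p = 1.36e-06). Fibroblast markers had 0 of 10 higher and 6 to 7 lower in these 4 differences between lines, and their part was not tested. Genotype, sex, age and line change together in these comparisons and cannot be told apart.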

How the results depend on the processing

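No paired analysis was possible because the labels carry no replicate numbers that tie libraries across groups. With day 0 without VC as the reference, Tgfb2 in WT cells with VC reversed to 1.36 at day 2 and 1.40 at day 4. So did, in an alternative chosen after seeing the data, the D/KO minus WT differences with VC for Tgfb2 at day 2 (-0.17), Ltbp1 at day 2 (0.57) and day 4 (0.39) and Tgfb1 at day 4 (-1.25). Leaving out 1 library in turn moved the Ltbp4 difference between lines over -0.42 to 0.037 at day 2 and -0.43 to 0.031 at day 4, reversed without D/KO day 0 replicate 1, and the cause was not tested. Of the counts of genes passing, that for Repsox became 3 and that for skin 4 when only the groups compared were fitted, and that for DMH-1 became 4 with DESeq2 (Tgfb1 and Lrrc32 added). Leaving out each library in turn gave 3 to 5 for WT day 2, 1 to 2 for the D/KO minus WT difference at day 2, and 1 to 2 for DMH-1. Of 24 genes found by likeness, 7 recurred with Spearman's rho, 1 with the reprogramming table alone and 15 without WT skin replicate 1 and Repsox replicate 2 (chosen after seeing the data). Over the values of single genes, calls gained and lost were 5 and 9 when only the groups compared were fitted, 2 and 4 with no filter, 0 and 4 with all 24 libraries, 3 and 0 with DESeq2, 1 and 0 with DESeq2 size factors, 2 and 1 with upper-quartile factors, and 1 and 1 with day 0 without VC as the reference. The last pair leaves out the 6 values that reversed. Among those 6, the Tgfb1 difference between lines at day 4 with VC gained the call (edgeR adjusted p = 1.36e-06). The differences for Tgfb2 at day 2 with VC (edgeR adjusted p = 0.653) and Ltbp1 at day 4 with VC (edgeR adjusted p = 0.0588) lost it. Of those without 1 library, 1177 kept direction and side of the threshold, 58 lost it, 5 gained it and 2 reversed. With totals not scaled by TMM, 21 of 32 RPKM levels moved by less than 1 SD. The lowest count was 90, for Tgfb2, where counting error is largest.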
